A study of Mus musculus with 48 samples.

Results

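The circadian repressors *Per1*, *Per2*, *Per3*, *Nr1d1*, *Nr1d2*, *Ciart* and *Bhlhe41* and the D-box activators *Dbp*, *Tef* and *Hlf* were followed in the substantia nigra (SN) of mice injected with α-synuclein (α-syn) and breathing 21% or 11% O2. The members were taken by gene symbol, as 10 of the 19601 protein-coding genes in the batch-corrected tables, and all 10 passed the filter on low counts. The mice were male C57Bl/6J, a wild-type strain without a transgene, and each received α-syn on one side only, in the right striatum, either as preformed fibrils (PFF), which seed aggregates of the protein, or as monomer. Mice of either injection then breathed 21% or 11% O2. The sources differ on the exposure: by the paper's methods 11% O2 began shortly after the injection and lasted 12 weeks, and by the design text it made up the last 6 of 12 weeks, after 6 weeks at 21% O2. The SN was collected from mice no older than 219 days, 90 to 98 days after injection, on a 12-h light and 12-h dark cycle; the time of day of collection was not given in the sources used here. Whole SN was sequenced, so all cell types of the region, and possibly of its neighbours, contributed. Of 48 mice, 12 per group, the authors left out 6 after a principal components analysis. The remaining 42 were 11 monomer and 12 PFF mice breathing 21% O2 and 9 monomer and 10 PFF mice breathing 11% O2.

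The mammalian clock is a loop of transcription and feedback. CLOCK and BMAL1, the product of *Arntl*, bind E-boxes and activate the *Per* and *Cry* genes, the REV-ERB genes *Nr1d1* and *Nr1d2*, *Ciart*, *Bhlhe41* and *Dbp*. PER proteins return with CRY proteins to inhibit CLOCK and BMAL1, *Ciart* (CHRONO) and *Bhlhe41* (DEC2) repress the same activators, and the REV-ERBs repress *Arntl* through ROR elements. The PAR bZIP factors DBP, TEF and HLF activate genes through the D-box, where NFIL3 represses. In brain, as in liver, these transcripts cycle over the day, and *Per1* in addition answers within an hour to neuronal activity and to glucocorticoids.

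The promoters of the members were searched for short motifs of the loop. RefSeq start sites on GRCm38.p6 were matched for 9 of the 10 members, all but *Per2*, and the 250 bases before each start were searched on both strands. The E-box CACGTG was found in 4 of the 9, *Ciart*, *Per1*, *Tef* and *Bhlhe41*, and in 6.02% of all windows of this length. The related CACGTT was found in *Nr1d1* alone among the members and in 3.85% of windows. The D-box TTATGTAA was found in *Per3* alone among the members, at 2 positions, and in 0.819% of windows. The ROR element TAGGTCA was found in 0 of the 9 members and in 2.23% of windows. The CRE motif TGACGTCA was found in *Hlf* alone among the members and in 1.55% of windows. None of these matches is evidence of binding, and the *Dbp* and *Nr1d2* windows held none of the motifs searched. The windows of 4 members whose transcripts differed between groups are shown, 5′ to 3′ on the strand of the gene, with E-box, CACGTT and D-box matches in capitals: *Ciart* has 3 E-boxes (chr3:95882229-95882478, minus strand), *Nr1d1* a CACGTT on the opposite strand (chr11:98775378-98775627, minus strand), *Per3* the 2 D-boxes (chr4:151044666-151044915, minus strand) and *Per1*, before its first listed start, 1 E-box (chr11:69098699-69098948, plus strand).
Ciart: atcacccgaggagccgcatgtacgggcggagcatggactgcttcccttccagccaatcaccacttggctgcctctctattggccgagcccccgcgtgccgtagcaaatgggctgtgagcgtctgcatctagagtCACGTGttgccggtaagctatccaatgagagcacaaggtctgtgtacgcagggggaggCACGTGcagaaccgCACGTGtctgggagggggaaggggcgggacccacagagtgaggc
Nr1d1: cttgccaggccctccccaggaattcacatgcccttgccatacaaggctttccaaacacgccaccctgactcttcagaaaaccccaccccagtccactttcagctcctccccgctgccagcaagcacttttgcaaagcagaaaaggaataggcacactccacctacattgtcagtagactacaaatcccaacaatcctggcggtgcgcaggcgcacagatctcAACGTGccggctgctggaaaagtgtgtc
Per3: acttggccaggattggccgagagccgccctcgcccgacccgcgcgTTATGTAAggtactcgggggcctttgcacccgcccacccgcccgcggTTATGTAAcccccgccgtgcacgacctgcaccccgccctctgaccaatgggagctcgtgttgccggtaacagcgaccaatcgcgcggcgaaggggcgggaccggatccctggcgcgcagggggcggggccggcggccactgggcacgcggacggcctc
Per1: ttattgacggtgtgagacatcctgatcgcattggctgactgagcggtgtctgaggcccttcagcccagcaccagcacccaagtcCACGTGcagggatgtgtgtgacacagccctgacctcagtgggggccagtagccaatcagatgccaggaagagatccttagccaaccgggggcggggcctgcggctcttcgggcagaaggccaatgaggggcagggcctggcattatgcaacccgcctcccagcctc

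In the annotation of the same build, the gene bodies lie on chromosome 11 from 69095217 to 69109960 (*Per1*, ENSMUSG00000020893.17), chromosome 1 from 91415982 to 91459324 (*Per2*, ENSMUSG00000055866.9), chromosome 4 from 151003652 to 151044665 (*Per3*, ENSMUSG00000028957.12), chromosome 11 from 98767932 to 98775333 (*Nr1d1*, ENSMUSG00000020889.11), chromosome 3 from 95878503 to 95882251 (*Ciart*, ENSMUSG00000038550.10) and chromosome 7 from 45705088 to 45710203 (*Dbp*, ENSMUSG00000059824.12). Reads were counted over the exons without use of strand, so reads of an overlapping antisense transcript would be included.

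All 10 genes were well expressed. In monomer mice breathing 21% O2, batch-corrected TPM, a level scaled by transcript length and by the total of each mouse, was highest for *Tef* at 124.5 ± 7.23 (SD, n = 11) and *Nr1d2* at 113.5 ± 11.12, followed by *Nr1d1* at 63.1 ± 6.93, *Dbp* at 50.98 ± 7.62, *Per1* at 40.7 ± 5.39, *Bhlhe41* at 39.1 ± 2.82, *Hlf* at 33.4 ± 3.93, *Per3* at 25.1 ± 2.97, *Per2* at 23.1 ± 2.58 and *Ciart* at 22.0 ± 2.54. In that order the ranges of all neighbours overlapped except those of *Nr1d2* and *Nr1d1*. Counts behind these levels ran from 148 to 341 per mouse for *Ciart*, the lowest, and from 3151 to 4496 for *Tef*, with 12902996 to 17120921 counts per library. The SN was collected in 3 batches by date, of which only batch 1 held all groups; no monomer mice breathing 11% O2 were in batch 2 and no monomer mice breathing 21% O2 in batch 3. Group comparisons used the authors' batch-corrected counts, and comparisons within a batch used the counts before correction. Calls came from edgeR's quasi-likelihood test and needed both a p under 0.05 after Benjamini–Hochberg adjustment over all genes tested and a log2 fold change of more than 0.25 up or down. The plot of all mice by group and batch shows how far the batches set the level of each gene.

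**Figure D1:**
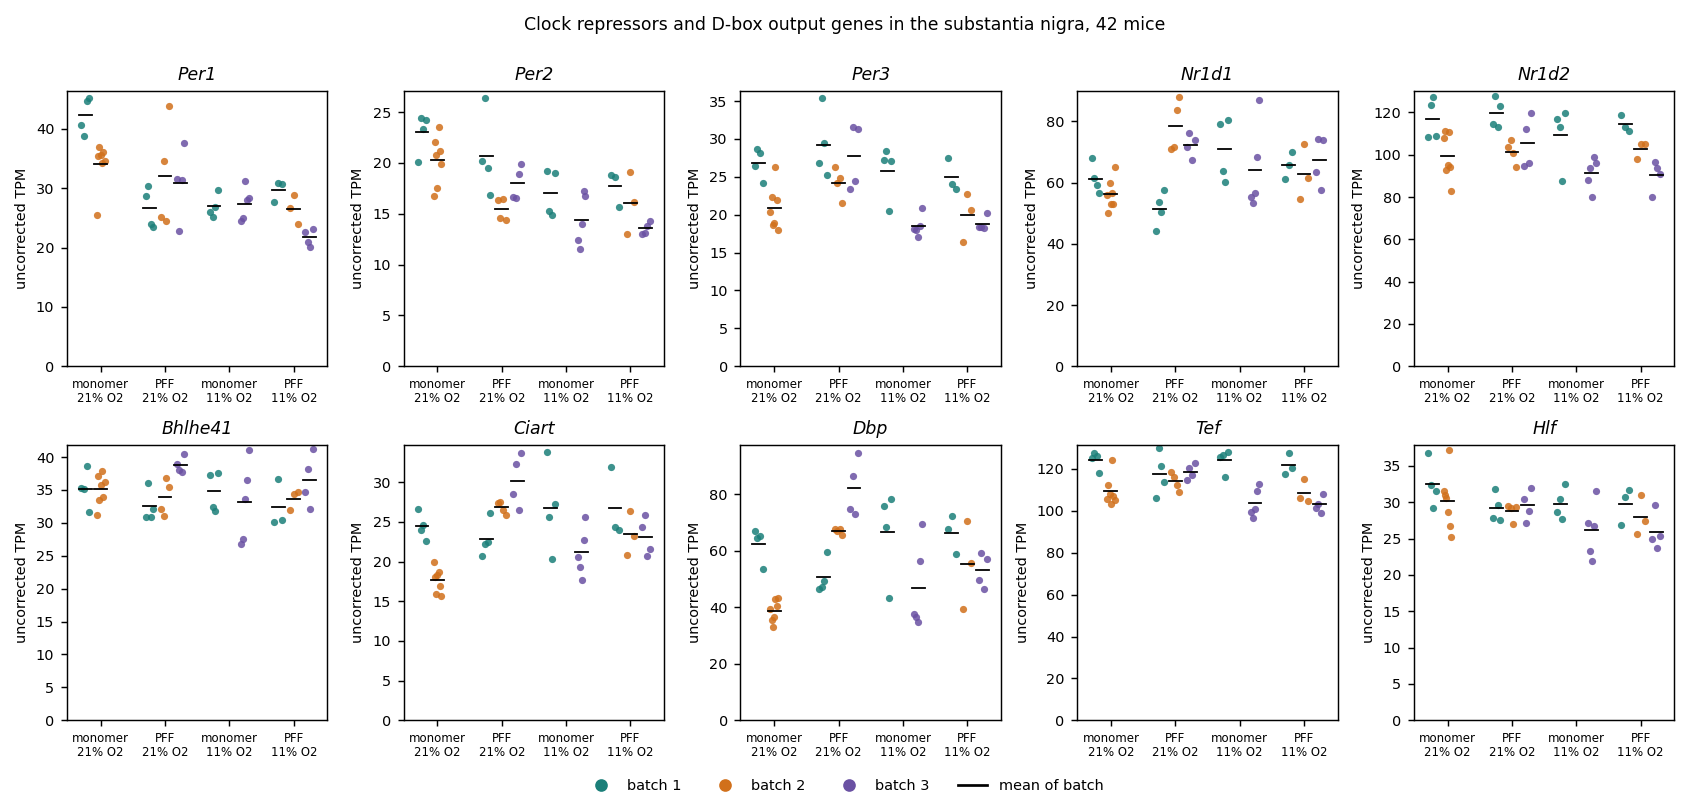
Uncorrected TPM of the 10 members (y axis, from 0) in each of the 42 mice (points) by group (x axis) and collection batch (colour), with the mean of each batch as a bar. *Dbp*, *Ciart* and *Nr1d1* of batch 2 lie higher in the 4 PFF than in the 7 monomer mice breathing 21% O2 without overlap, and *Per1* of batch 1 is higher in monomer mice breathing 21% O2 than in the other groups of that batch.

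Did PFF alter the clock genes in mice breathing 21% O2? At this O2 level, 4 of the 10 members were called, against 3.70% of the 14839 genes tested: *Dbp*, *Ciart* and *Per3* were higher in PFF mice and *Per1* was lower. *Dbp* ranged from 38.2 to 61.1 corrected TPM with a median of 52.1 in monomer mice, and from 50.9 to 109.6 with a median of 81.1 in PFF mice. The ranges overlapped, with 9 of the 12 PFF mice above every monomer mouse. The log2 fold change of *Dbp* was 0.61 ± 0.13 (SE; edgeR adjusted p = 0.00314). *Ciart* ranged from 18.1 to 26.2 with a median of 21.9 in monomer mice and from 21.8 to 37.7 with a median of 30.7 in PFF mice, a log2 fold change of 0.45 ± 0.087 (edgeR adjusted p = 0.000887). Its groups overlapped at the lower end of the PFF mice. The corrected TPM of *Per3*, the PER with the weakest role in the core loop, went from a median of 24.5 (21.24 to 31.8) to 28.6 (23.9 to 37.5), and its log2 fold change of 0.26 ± 0.070 (edgeR adjusted p = 0.0169) stood just above the threshold. Without any 1 of PFF mice 2, 10 and 12 or of monomer mice 4, 7, 8 and 12, it lay between 0.22 and 0.25 and was no longer called. Nor was it in the 3 limma fits on TPM (0.23 to 0.24), without a batch term on uncorrected counts (edgeR adjusted p = 0.0977) or with all 48 mice (edgeR adjusted p = 0.0815).

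The other PER genes went the opposite way from *Dbp* and *Ciart*. *Per1* ranged from 29.2 to 49.6 corrected TPM with a median of 40.0 in monomer mice and from 22.8 to 47.4 with a median of 30.9 in PFF mice, and its log2 fold change was -0.33 ± 0.091 (edgeR adjusted p = 0.0209). The call of *Per1* was lost with batch as a covariate on uncorrected counts, where the log2 fold change was -0.27 with 42 mice (edgeR adjusted p = 0.0762) and -0.26 with 48 (edgeR adjusted p = 0.138), and in a fit of only these 2 groups at -0.32 (edgeR adjusted p = 0.0557). *Per2* had a median of 23.7 (19.1 to 27.5) in monomer and 19.1 (16.5 to 25.5) in PFF mice and was not called, with a log2 fold change of -0.22 ± 0.075 (edgeR adjusted p = 0.0652), although it was called at -0.25 without PFF mouse 2 (edgeR adjusted p = 0.0255). *Nr1d1* was not called at 0.23 ± 0.087 (edgeR adjusted p = 0.101), but was at 0.27 without PFF mouse 1 (edgeR adjusted p = 0.0368). For *Nr1d2*, *Tef*, *Hlf* and *Bhlhe41* the log2 fold changes lay between -0.061 and 0.081 with SE between 0.043 and 0.057. In these bulk samples fewer cells of a type and less RNA per cell cannot be told apart.

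**Figure D2:**
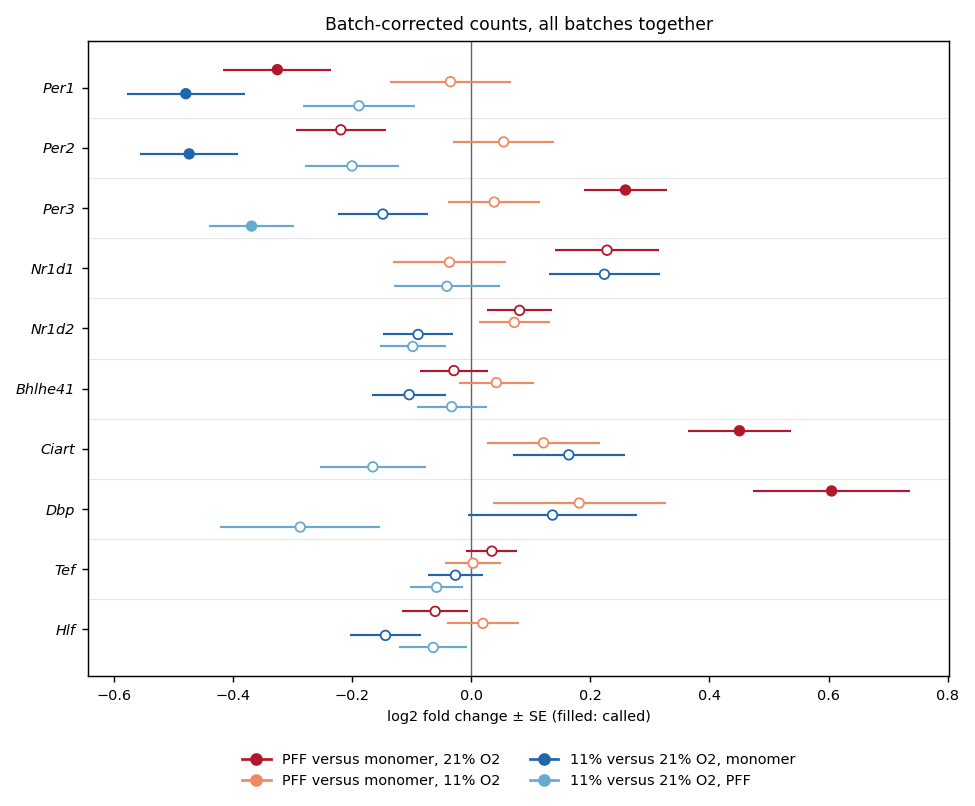
Log2 fold change with its SE (x axis) of each member (y axis) in the 4 comparisons of batch-corrected counts, filled where called. *Dbp*, *Ciart* and *Per3* lie to the right and *Per1* to the left for PFF at 21% O2, and *Per1* and *Per2* lie furthest to the left for 11% O2 in monomer mice.

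The PFF difference at 21% O2 was not the same in the batches. In batch 1, with 4 mice per group, none of the 10 was called, against 0.0396% of 15155 genes tested, and 1 had an unadjusted p under 0.05. In batch 2, with 4 PFF and 7 monomer mice, 4 were called, against 4.59% of genes: *Dbp*, *Ciart* and *Nr1d1* higher and *Per2* lower in PFF mice. *Dbp* before correction was 65.6, 67.2, 67.6 and 67.9 TPM in the PFF mice of batch 2 and 32.9 to 43.5 with a median of 39.5 in the monomer mice. The groups did not overlap, and the log2 fold change was 0.80 ± 0.15 (edgeR adjusted p = 0.000602). With groups this small some genes separate by chance, and the share of all genes without overlap was not determined in any comparison. In batch 1 the PFF mice lay at or below most monomer mice, with 46.6, 47.2, 49.3 and 59.5 TPM in PFF mice and 53.5, 64.4, 65.2 and 66.9 in monomer mice, and a log2 fold change of -0.27 ± 0.17 that was not called (edgeR adjusted p = 0.485).

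*Ciart* followed *Dbp*. In batch 2 it was 25.9, 26.5, 27.4 and 27.5 TPM in PFF mice and 15.7 to 19.9 with a median of 18.1 in monomer mice, without overlap and at a log2 fold change of 0.61 ± 0.11 (edgeR adjusted p = 0.000301). In batch 1 it was 20.7, 22.3, 22.5 and 26.1 TPM in PFF mice and 22.5, 24.0, 24.7 and 26.7 in monomer mice, and the groups overlapped. *Nr1d1*, which encodes REV-ERBα, was 71.2, 71.8, 83.9 and 87.9 TPM in the PFF mice of batch 2, above the 50.2 to 64.98 of the monomer mice, at a log2 fold change of 0.49 ± 0.11 (edgeR adjusted p = 0.00236). In batch 1 it was 44.1, 50.5, 53.8 and 57.6 TPM in PFF and 56.7, 59.2, 61.5 and 67.9 in monomer mice, with -0.22 ± 0.12 on the log2 scale (edgeR adjusted p = 0.433).

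The difference between the batches was itself tested, and 3 members were called, against 1.14% of genes. The PFF response in batch 2 exceeded that in batch 1 by 1.07 ± 0.23 on the log2 scale for *Dbp* (edgeR adjusted p = 0.0144), by 0.71 ± 0.16 for *Nr1d1* (edgeR adjusted p = 0.0193) and by 0.68 ± 0.17 for *Ciart* (edgeR adjusted p = 0.0339). Both arms differed between the batches. For *Dbp*, monomer mice breathing 21% O2 had a mean of 62.5 ± 6.11 TPM (SD, n = 4) in batch 1 and 38.8 ± 3.98 (n = 7) in batch 2, whereas PFF mice had 50.7 ± 6.01 (n = 4) and 67.1 ± 1.01 (n = 4), and 82.3 ± 10.1 (n = 4) in batch 3, which had no monomer mice breathing 21% O2. Leaving out PFF mouse 1 or monomer mouse 1 left *Dbp* alone called, with *Nr1d1* at 0.65 (edgeR adjusted p = 0.0643) or 0.66 (edgeR adjusted p = 0.0706) and *Ciart* at 0.64 in either case (edgeR adjusted p = 0.0877 and 0.0952). *Ciart* alone was also lost without PFF mouse 2, 5 or 6 or monomer mouse 7, at 0.65 to 0.68 (edgeR adjusted p = 0.0546 to 0.0948).

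**Figure D3:**
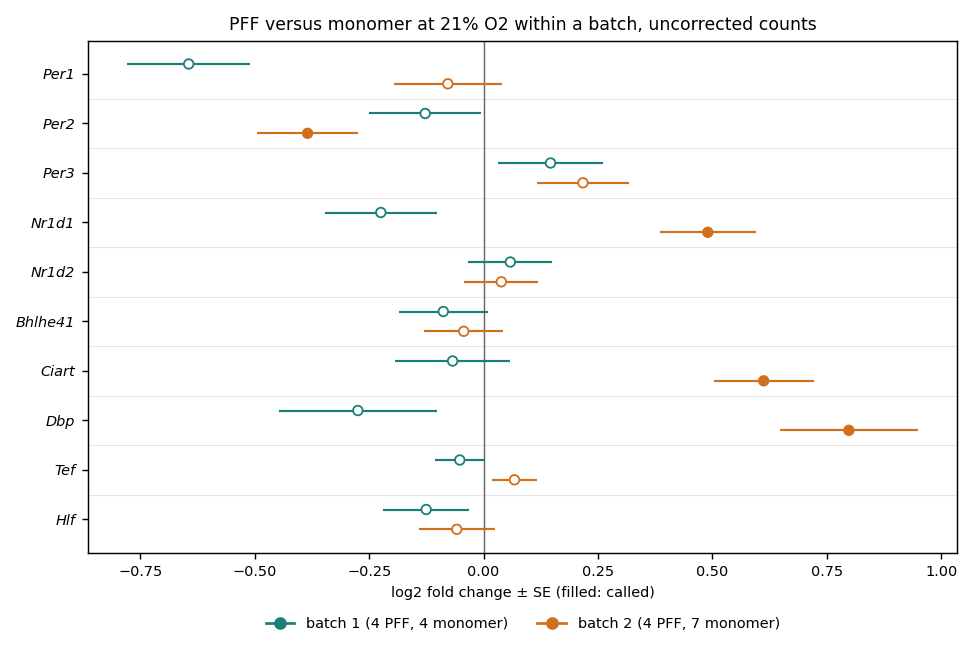
Log2 fold change with its SE (x axis) of each member (y axis) for PFF against monomer at 21% O2 within batch 1 and within batch 2, on uncorrected counts, filled where called. *Dbp*, *Ciart* and *Nr1d1* lie right of 0 in batch 2 and left of 0 in batch 1, and *Per1* is furthest from 0 in batch 1.

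*Per1* and *Per2* showed another pattern over the batches. *Per1* was 23.4, 23.9, 28.7 and 30.3 TPM in the PFF mice of batch 1 and 38.8, 40.7, 44.6 and 45.2 in the monomer mice, without overlap, yet its log2 fold change of -0.64 ± 0.13 missed the threshold in this comparison (edgeR adjusted p = 0.0563). It passed with DESeq2 (adjusted p = 0.00575), with the size factors of DESeq2 in edgeR (adjusted p = 0.0494) and without the filter on low counts (edgeR adjusted p = 0.0447). In batch 2 *Per1* was 24.6, 25.2, 34.6 and 43.9 TPM in PFF mice, on both sides of the median of 35.4 in monomer mice, with a log2 fold change of -0.08 ± 0.12. The difference of 0.57 ± 0.18 between these responses was not called (edgeR adjusted p = 0.122), but was at 0.68 without PFF mouse 7 (edgeR adjusted p = 0.0442). *Per2* was 14.4, 14.5, 16.3 and 16.4 TPM in the PFF mice of batch 2, just under the 16.7 to 23.6 of the monomer mice, at a log2 fold change of -0.38 ± 0.11 (edgeR adjusted p = 0.0278). That call was lost without PFF mouse 6 or 8 or monomer mouse 6 or 9, at -0.36 to -0.35 (edgeR adjusted p = 0.0544 to 0.0935). In batch 1 *Per2* was 16.9, 19.5, 20.2 and 26.4 TPM in PFF and 20.1, 23.4, 24.2 and 24.4 in monomer mice, and the groups overlapped.

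Other genes moved in the same comparison, and their part in the results on the members was not tested. Of 10 temperature-responsive genes, 8 were called for PFF at 21% O2 in batch 2, with the cold-inducible *Cirbp* higher by 0.89 ± 0.081 (edgeR adjusted p = 4.89e-09) and the heat shock gene *Dnajb1* lower at -0.76 ± 0.11 (edgeR adjusted p = 1.48e-05), and 1 was called in batch 1. Of 12 glucocorticoid-responsive genes, 4 were lower in batch 2, among them *Tsc22d3* (GILZ) at -0.42 ± 0.091 (edgeR adjusted p = 0.00283), and none was called in batch 1. The 11 immediate early genes tested were all estimated lower in PFF mice of batch 1, with 1 called. In batch 2, 4 of them were estimated higher and 7 lower, with 0 called. None of the 10 dopaminergic neuron markers was called in either batch: all 10 estimates were lower in PFF mice in batch 1 and 9 of 10 were higher in batch 2. Their summed TPM, none of them at 0, ran from 2589 to 5705 in monomer and 2852 to 4135 in PFF mice of batch 1, and from 1653 to 4788 and 2340 to 4531 in batch 2.

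In mice breathing 11% O2, PFF and monomer mice did not differ detectably in any member. None was called, as was none of all genes (0.00%), with 581 genes and none of the members at an unadjusted p under 0.05, and DESeq2 called 1 gene, no member. *Dbp* had a median of 62.9 corrected TPM (35.9 to 80.1) in monomer and 63.4 (45.4 to 91.4) in PFF mice, a log2 fold change of 0.18 ± 0.15, and *Per1* had 27.8 (25.5 to 34.0) and 28.0 (22.9 to 33.2). The groups overlapped over most of their range. Within batch 1 (0.00% of genes called) the estimates lay between -0.10 and 0.16, and within batch 3 (0.00%) between -0.33 for *Per1*, the only member with an unadjusted p under 0.05, and 0.18 for *Dbp*. Without monomer mouse 11, the mouse collected 98 days after injection, *Dbp* in batch 3 was at 0.36 and *Nr1d1* at 0.205, and no member was called. The interaction of PFF and O2, the difference of the PFF responses at the 2 O2 levels, was called for no member, against 2.14% of genes. It had an unadjusted p under 0.05 for 6 of 10, as it did for 2279 of the 14839 genes, with estimates of -0.42 ± 0.20 for *Dbp*, -0.33 ± 0.13 for *Ciart*, -0.26 ± 0.13 for *Nr1d1*, -0.22 ± 0.10 for *Per3*, 0.29 ± 0.14 for *Per1* and 0.27 ± 0.11 for *Per2* (edgeR adjusted p from 0.183 to 0.312). The PFF calls at 21% O2 are therefore not shown to differ from the PFF responses at 11% O2.

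Breathing 11% O2 went with less *Per1* and *Per2*. In monomer mice these 2 members were called lower, against 7.23% of genes. *Per2* ranged from 19.1 to 27.5 corrected TPM with a median of 23.7 at 21% O2 and from 13.3 to 20.1 with a median of 16.2 at 11% O2, a log2 fold change of -0.47 ± 0.082 (edgeR adjusted p = 9.85e-05). *Per1*, with medians of 40.0 (29.2 to 49.6) and 27.8 (25.5 to 34.0), changed by -0.48 ± 0.099 (edgeR adjusted p = 0.00083). The groups overlapped only at their edges for *Per2*, and for *Per1* through a monomer mouse at 29.2 TPM. Both calls held in every setting and with any single mouse left out. *Per3* had -0.15 ± 0.076, *Nr1d1* 0.22 ± 0.093 and *Hlf* -0.14 ± 0.060, the last 2 with an unadjusted p under 0.05, and *Dbp*, *Ciart*, *Nr1d2*, *Tef* and *Bhlhe41* lay between -0.10 and 0.16. None of these 8 was called.

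The same 2 genes were called within batch 1, the only batch with both monomer groups, against 2.44% of genes. *Per1* was 38.8, 40.7, 44.6 and 45.2 TPM before correction at 21% O2 and 25.2, 26.1, 26.9 and 29.7 at 11% O2, with no overlap and a log2 fold change of -0.66 ± 0.13 (edgeR adjusted p = 0.0043). *Per2* was 20.1, 23.4, 24.2 and 24.4 TPM at 21% O2 and 14.8, 15.3, 19.0 and 19.2 at 11% O2, also without overlap, with -0.43 ± 0.12 (edgeR adjusted p = 0.0464). The call of *Per2* was lost on leaving out any 1 of 7 of the 8 mice, all but monomer mouse 1 at 21% O2, at -0.50 to -0.37 (edgeR adjusted p = 0.0552 to 0.139). Beside these, 4 of 11 immediate early genes tested were lower in batch 1, among them *Egr1* at -1.46 ± 0.32 (edgeR adjusted p = 0.00784) and *Fos* at -1.27 ± 0.29 (edgeR adjusted p = 0.0121), as were 4 of 12 glucocorticoid-responsive genes, led by *Sgk1* at -2.45 ± 0.36 (edgeR adjusted p = 6.66e-05). Of 10 temperature-responsive genes, 1 was called higher and 5 lower in batch 1. The share of all genes was again 2.44%. All 5 endothelial markers and all 4 pericyte markers were called higher at 11% O2 over all batches, and 1 and 3 of them in batch 1. Summed TPM of the endothelial markers in batch 1 was 67.8 to 84.3 at 21% and 113.8 to 146.7 at 11% O2, and of the pericyte markers 67.1 to 85.6 and 88.7 to 115.3, with none at 0. Their part in the *Per* results was not tested.

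In PFF mice, 11% O2 went with lower *Per3*. It was the 1 member called, against 0.580% of genes, with a median of 28.6 corrected TPM (23.9 to 37.5) at 21% and 22.2 (19.4 to 27.4) at 11% O2 and a log2 fold change of -0.37 ± 0.072 (edgeR adjusted p = 0.00304). The ranges overlapped. All 10 estimates were below 0, with a median over the members of -0.13 against -0.0063 over all genes. *Per2* at -0.20 ± 0.079 and *Dbp* at -0.29 ± 0.13 had an unadjusted p under 0.05, and *Per1* was at -0.19 ± 0.094, and none of these was called. When the 6 mice left out were added and batch was a covariate, or without a batch term, *Per3* was not called either (edgeR adjusted p = 0.0544 and 0.0926).

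Within batch 3, all 10 estimates for 11% O2 in PFF mice were below 0 and 8 had an unadjusted p under 0.05, as did 974 of 15155 genes, with a median of -0.32 against 0.0014 over all genes, but *Per3* alone was called, against 0.158% of genes. *Per3* was 23.4, 24.5, 31.4 and 31.6 TPM at 21% O2 and 18.3, 18.3, 18.4 and 20.2 at 11% O2, a log2 fold change of -0.57 ± 0.12 (edgeR adjusted p = 0.0141). That call was lost without PFF mouse 10 or 12 at 21% O2 or without PFF mouse 9, 10 or 11 at 11% O2, at -0.56 to -0.51 (edgeR adjusted p = 0.0585 to 0.11). *Dbp* was 73.0, 74.9, 86.6 and 94.5 TPM at 21% O2 and 46.5, 49.6, 56.9 and 59.3 at 11% O2, without overlap but not called at -0.64 ± 0.17 (edgeR adjusted p = 0.146). The groups did not overlap for *Per2*, *Ciart* and *Tef* either, with -0.42 ± 0.13, -0.40 ± 0.12 and -0.21 ± 0.055. None of these was called (edgeR adjusted p = 0.266, 0.29 and 0.116), and the share of all genes without overlap was not determined. *Per1* overlapped at -0.52 ± 0.14, and was called at -0.64 without PFF mouse 10 at 21% O2 (edgeR adjusted p = 0.034).

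In the other batches the same comparison gave other values. In batch 1, with 4 and 3 mice, no member was called, against 0.0264% of genes, and 6 of the 10 estimates were above 0. *Nr1d1* was 44.1, 50.5, 53.8 and 57.6 TPM at 21% and 61.1, 65.8 and 70.0 at 11% O2, which gave 0.33 ± 0.13 (edgeR adjusted p = 0.626), and *Dbp* gave 0.37 ± 0.19 (edgeR adjusted p = 0.707). In batch 2, with 4 and 3 mice, none was called, against 0.172% of genes, and 7 estimates were below 0, with *Nr1d1* at -0.30 ± 0.13 (edgeR adjusted p = 0.52) and *Dbp* at -0.26 ± 0.19 (edgeR adjusted p = 0.736). The estimates of *Per3* were -0.24 ± 0.12, -0.25 ± 0.13 and -0.57 ± 0.12 in batches 1, 2 and 3, below 0 in each. Whether the response to O2 differed between these batches was not tested.

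**Figure D4:**
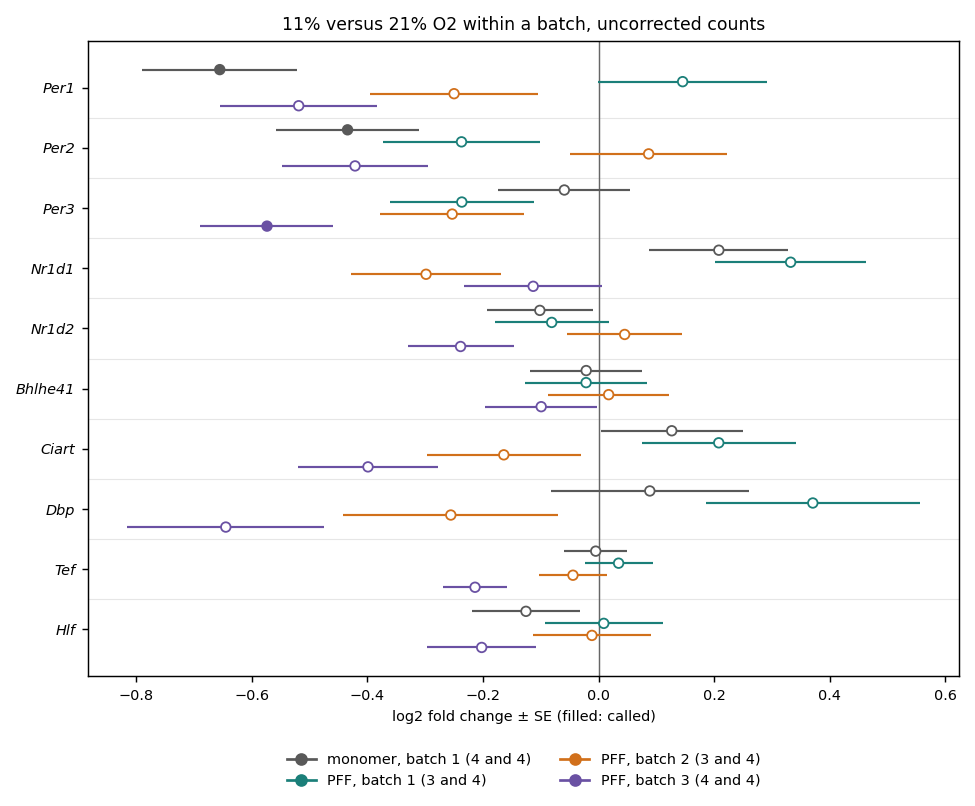
Log2 fold change with its SE (x axis) of each member (y axis) for 11% against 21% O2 within a batch, on uncorrected counts, in monomer mice of batch 1 and in PFF mice of batches 1, 2 and 3, filled where called. *Per1* and *Per2* lie left of 0 in monomer mice, all 10 members lie left of 0 in PFF mice of batch 3, and *Dbp* and *Nr1d1* lie right of 0 in PFF mice of batch 1.

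Batches were compared directly in PFF mice, which were present in all 3. Against batch 1, 1 member was called in batch 2 (3.02% of genes) and 3 in batch 3 (13.4% of genes), all lower, and none differed detectably between batches 3 and 2 (0.00% of genes), where 1 member had an unadjusted p under 0.05. *Per3* was lower in batch 2 at -0.31 ± 0.088 (edgeR adjusted p = 0.0331) and in batch 3 at -0.26 ± 0.084 (edgeR adjusted p = 0.0211). *Per2* was lower in batch 3 at -0.31 ± 0.092 (edgeR adjusted p = 0.0119), as was *Nr1d2*, the gene of REV-ERBβ, at -0.28 ± 0.067 (edgeR adjusted p = 0.00332). The estimates of *Nr1d1* had the opposite sign to those of *Nr1d2*, at 0.26 ± 0.092 in batch 2 (edgeR adjusted p = 0.0677) and at 0.25 ± 0.089 in batch 3 (edgeR adjusted p = 0.0336, with the fold change just under the threshold). Cell type markers differed between the same batches, and their part in the results on the members was not tested. Against batch 1, all 5 endothelial, 3 of 4 pericyte, 3 of 5 microglial, 1 of 3 GABAergic and 1 of 5 leptomeningeal markers were called higher and 3 of 10 dopaminergic markers lower in batch 3, with a median log2 fold change of 0.66 for the endothelial and -0.60 for the dopaminergic list. In batch 2, 2 of 4 pericyte, 2 of 5 leptomeningeal and 1 of 3 GABAergic markers were called higher, and all 10 dopaminergic estimates were below 0 with none called. Single mice decided several of the calls of members. For batch 2, *Per3* was not called without PFF mouse 2, 7 or 8 at 21% O2 or PFF mouse 1 or 6 at 11% O2 (log2 fold change -0.31 to -0.25). *Per2* was called without PFF mouse 4 or 5 at 21% O2 or 4 or 7 at 11% O2 (-0.36 to -0.30), and *Nr1d1* without PFF mouse 4 or 5 at 21% O2 (0.29 to 0.30). For batch 3, *Per3* was not called without PFF mouse 2, 9 or 11 at 21% O2 or 1 or 11 at 11% O2 (-0.25 to -0.21), nor *Per2* without PFF mouse 2 at 21% O2 (-0.25), nor *Nr1d2* without PFF mouse 1 or 9 at 11% O2 (-0.25). *Nr1d1* was called at 0.25 to 0.28 without any 1 of 6 mice.

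Other genes of the loop were described from lists of 20 clock activators and modifiers and 11 clock-controlled outputs. For PFF at 21% O2, 2 of the 20 were called, against 3.70% of genes, and both were lower. *Arntl*, the target of REV-ERB repression, was at -0.25 ± 0.066 (edgeR adjusted p = 0.0126), with 12.4 ± 1.23 corrected TPM (SD, n = 11) in monomer and 10.3 ± 1.46 (n = 12) in PFF mice. *Nfil3*, the repressor at the D-box, was at -0.34 ± 0.088 (edgeR adjusted p = 0.0122). *Clock*, *Npas2*, *Cry1* and *Cry2* lay between -0.12 and 0.018 and were not called. By batch, *Arntl* was lower in PFF mice of batch 2 at -0.40 ± 0.077 (edgeR adjusted p = 0.000698) and was at 0.03 ± 0.088 in batch 1, although the difference of -0.43 ± 0.12 was not called (edgeR adjusted p = 0.0589). *Arntl* was the only 1 of the 20 called in batch 2, and 0 were called in batch 1, so *Nfil3* was called in neither batch. For 11% O2 in monomer mice, *Nfil3* was lower at -0.32 ± 0.095 (edgeR adjusted p = 0.0187), and *Bhlhe40* (DEC1), the partner of *Bhlhe41*, was higher at 0.28 ± 0.060 (edgeR adjusted p = 0.00151), as was *Timeless* at 0.34 ± 0.099 (edgeR adjusted p = 0.017). In this comparison 7.23% of genes were called. Within batch 1, the only batch with both monomer groups, 0 of the 20 were called, against 2.44% of genes. In PFF mice of batch 3, where all members were estimated lower at 11% O2, *Arntl* was higher at 0.45 ± 0.086 (edgeR adjusted p = 0.00917). Of the 11 outputs, *Cdkn1a* alone was called for PFF at 21% O2, at -0.42 ± 0.12 (edgeR adjusted p = 0.0248), and for 11% O2 in monomer mice, at -0.45 ± 0.13 (edgeR adjusted p = 0.017). These 2 comparisons share the monomer mice breathing 21% O2. *Cdkn1a* is also on the glucocorticoid-responsive list described below, so its calls enter the counts of both lists. No gene of either list was called for PFF at 11% O2, for 11% O2 in PFF mice over all batches or for the interaction.

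Beyond the clock, the lists of genes that respond to stress and activity differed in the same 2 comparisons. For PFF at 21% O2 over all batches, 6 of 12 glucocorticoid-responsive genes were called (1 higher, 5 lower), 2 of 11 immediate early genes (both lower) and 8 of 10 temperature-responsive genes (2 higher, 6 lower). For 11% O2 in monomer mice the counts were 6 of 12 (all lower), 3 of 11 (all lower) and 7 of 10 (1 higher, 6 lower). None of the 3 lists had a called gene for PFF at 11% O2 or for 11% O2 in PFF mice. For the interaction, 2 glucocorticoid-responsive genes and 1 immediate early gene were called, all higher, and 7 temperature-responsive genes, 5 higher and 2 lower. Among the cell type markers, none was called for PFF at either O2 level. For 11% O2 in monomer mice, 2 of 5 oligodendrocyte markers were called higher beside the endothelial and pericyte markers. For 11% O2 in PFF mice, 2 of 5 endothelial and 2 of 4 pericyte markers were higher, and for the interaction 1 oligodendrocyte and 1 pericyte marker were lower. No dopaminergic, GABAergic, glutamatergic, astrocyte, microglial, choroid plexus or leptomeningeal marker was called in these 5 comparisons, and no list of markers was at 0 in any group. The part of these genes in the results on the clock genes was not tested.

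The members also varied together between mice of the same group and batch. Log2 CPM (counts scaled by library size) before correction were centred within each of the 10 combinations of group and batch, and the 42 mice were correlated for all 55 pairs of the members and *Arntl*, with 100000 permutations of mice within these combinations and adjustment over the 55. Of the 45 pairs of members, 41 were positive, with a median Pearson r of 0.449, and 29 passed an adjusted permutation p under 0.05, all positive. The same shares for pairs of other genes were not determined, so the counts have no background beside them. The strongest were *Dbp* with *Nr1d1* (r = 0.781, rho = 0.738), *Dbp* with *Ciart* (r = 0.754, rho = 0.713) and *Per3* with *Tef* (r = 0.748, rho = 0.730), each with a permutation p for r of 1e-05, the smallest that 100000 permutations can give (adjusted permutation p = 0.000183). Without the 2 mice farthest from the median of the first gene, r was 0.724 for *Nr1d1* with *Dbp*, 0.674 for *Dbp* with *Ciart* and 0.673 for *Per3* with *Tef*.

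*Per1* stood outside this group. Its r with the other members lay between -0.161 for *Ciart* and 0.328 for *Bhlhe41*, and the latter alone passed for r (adjusted permutation p = 0.0492) but not for rho (0.354, adjusted permutation p = 0.0591). With *Dbp* it was -0.000661 (permutation p = 0.996). *Arntl* was negative with all 10 members, and passed for r with *Dbp* (r = -0.565, rho = -0.544, adjusted permutation p = 0.00189 and 0.00349), *Ciart* (r = -0.533), *Nr1d2* (r = -0.530), *Per3* (r = -0.453) and *Tef* (r = -0.341, adjusted permutation p = 0.0498, with rho = -0.311 not passing at 0.0972). Without the 2 farthest mice, r of *Dbp* with *Arntl* was -0.487. These pairs share libraries and the makeup of each tissue sample, for which values are given next.

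**Figure D5:**
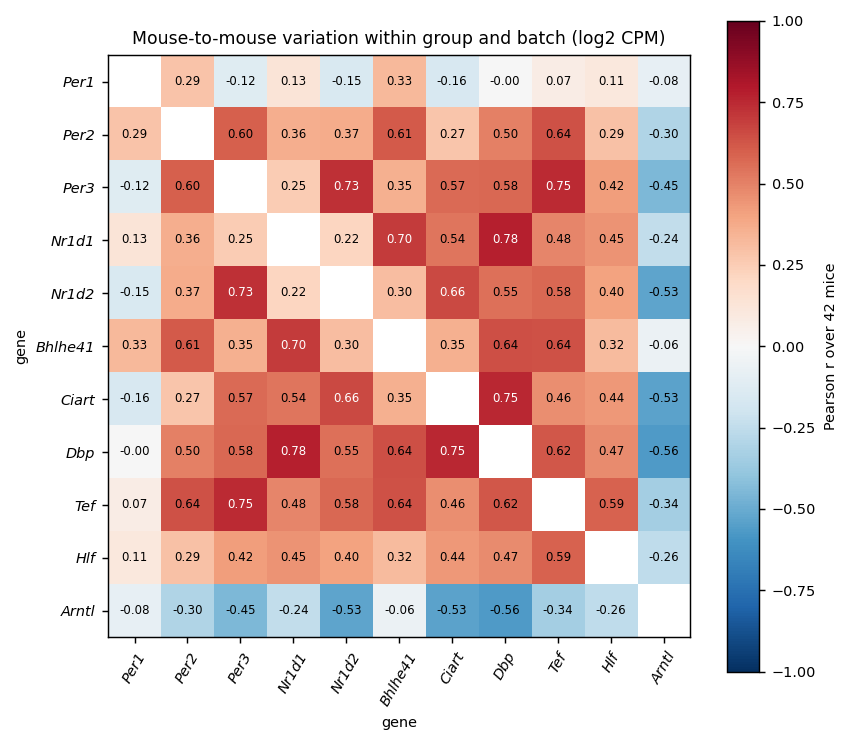
Pearson r over 42 mice between the members and *Arntl* (both axes), after centring log2 CPM within group and batch; red is positive and blue negative. Of the 45 pairs of members 41 are positive, the *Per1* row lies between -0.16 and 0.33 among the members and the *Arntl* row is negative.

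The mean of the 10 members over mice, scaled per gene, moved with markers of several cell types within group and batch. It was negative with the 10 dopaminergic neuron markers (r = -0.619, rho = -0.623, adjusted permutation p = 0.00176 and 0.00106 over 11 relations, r = -0.558 without the 2 farthest mice), and positive with the 3 GABAergic markers (r = 0.593, rho = 0.570), the 5 leptomeningeal (r = 0.565, rho = 0.600), the 5 endothelial (r = 0.504, rho = 0.496), the 5 microglial (r = 0.428, rho = 0.442) and the 6 astrocyte markers (r = 0.424, rho = 0.487), with adjusted permutation p from 0.00176 to 0.0244. With the 4 pericyte markers, r = 0.385 did not pass (adjusted permutation p = 0.0526) and rho = 0.417 did (adjusted permutation p = 0.0267). It had r = 0.249 with the choroid plexus, 0.0722 with the oligodendrocyte and 0.0285 with the 2 glutamatergic markers, and 0.112 with the number of counts per library (adjusted permutation p for r from 0.112 to 0.864 and for rho from 0.0683 to 0.815). The genes most like the member mean among 15145 others, by Pearson r over the 42 mice and given as a description, were *Gcnt4* (0.747), *Maf* (0.716), *Tspan4* (0.708), *Apcdd1* (0.689), *Cdh24* (0.688), *Smpdl3b* (0.681), *Foxc1* (0.673) and *Gata3* (0.670). The most opposite were *Prima1* (-0.725), *Agpat4* (-0.695), *Tmem207* (-0.692), *Adam19* (-0.691), *Pcbd1* (-0.687), *St6galnac5* (-0.687), *Fam149a* (-0.674) and *Greb1* (-0.674). Of all others, the central 95% lay between -0.528 and 0.516. The share of the mouse-to-mouse relations among members that goes with tissue makeup was not tested.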

How the data were processed

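Gene expression was measured by polyA RNA-seq of the SN of 48 mice. The authors removed ribosomal reads, aligned the rest with STAR 2.7.5a to mm10, removed duplicate reads with Picard 2.21.9 and counted those left with featureCounts 2.0.1 without use of strand. Counts and TPM are thus of deduplicated reads, which can understate the most abundant transcripts. The authors dropped 6 mice by their place in a principal components plot (Scanpy 1.8.1). Deposited values were raw counts and TPM of all 48 mice and, for 42 mice, counts and TPM that the authors had corrected for batch with ComBat-seq, keeping injection and O2 as covariates. Corrected counts are adjusted whole numbers, so tests on them do not carry the error of the correction.

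Batch was taken from the batch label of each mouse, since replicate numbers of monomer mice did not follow the batches of the PFF mice. The 10 members, the gene lists and the tests were chosen with earlier results of these data known. Counts were tested with edgeR 4.0.16 (quasi-likelihood test, TMM, filterByExpr with a minimum count of 10, Benjamini–Hochberg adjustment) in R 4.3.3. Corrected counts were fitted with 1 mean per group, and uncorrected counts with 1 mean per group and batch. All 10 members were described in every comparison. Of the other lists, at most 4 called genes per list and comparison, those with the smallest p, and the core genes *Arntl*, *Clock*, *Npas2*, *Cry1*, *Cry2* and *Nfil3* were named. The genes most like the members were the 8 highest and 8 lowest by r. Log2 CPM (counts scaled by library size) used a prior count of 2. Alternatives included DESeq2 1.42.0, limma 3.58.1 on log2 TPM, other filters and scalings, all 48 mice, batch as a covariate and leaving out each mouse. The steps were tested on simulated data. Each mouse is 1 library, with 12902996 to 17120921 counts in the 42 mice and 3134594 in the shallowest of the mice left out. The paper describes a randomized design with matched pairs of mice. Replicate numbers were shared between groups, but same-numbered mice did not deviate together in every pair (above 0.1 in 4 of 11, 1 of 7, 0 of 8 and 5 of 10 pairs). Some same-numbered mice came from different batches, so this check cannot show which mice were matched. The tests therefore did not use the matching.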

Additional observations from a re-analysis of the deposited data

Results flagged for a closer look

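The response to PFF at 21% O2 differed between collection batches for 3 members by a test of the difference itself. The log2 fold change in batch 2 exceeded that in batch 1 by 1.073 for *Dbp*, 0.7147 for *Nr1d1* and 0.6799 for *Ciart*.

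Single mice stood apart from their group in 7 of 100 sets of 4 to 10 mice, where chance flags about 1 in 20. In corrected TPM, PFF mouse 7 at 11% O2 had *Dbp* at 91.36 against 45.41 to 69.39 in the other mice of its group, and *Per2* at 22.32 against 14.92 to 18.8. PFF mouse 9 at 11% O2 had *Nr1d2* at 93.95 against 106.3 to 119.4. In uncorrected TPM within a batch, monomer mouse 5 at 21% O2 had *Per1* at 25.56 against 34.26 to 37.01 in batch 2, PFF mouse 12 at 11% O2 had *Per3* at 20.18 against 18.29 to 18.41 in batch 3, monomer mouse 3 at 11% O2 had *Per3* at 20.49 against 27.09 to 28.44 in batch 1, and PFF mouse 7 at 21% O2 had *Hlf* at 26.98 against 29.21 to 29.5 in batch 2.

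Mice that the authors left out had levels above all 42 analysed mice for 5 members, in uncorrected TPM. *Hlf* was at 51.06 in PFF mouse 2 and 66.82 in PFF mouse 5 at 11% O2 and at 42.85 in monomer mouse 10 at 21% O2, above a highest analysed value of 37.14. The library of PFF mouse 2 at 11% O2 was the shallowest of all, with 3134594 counts. PFF mouse 5 at 11% O2 also had *Nr1d2* at 134.6 (highest analysed 127.9) and *Dbp* at 99.94 (94.48). *Per2* was at 27.45 in monomer mouse 10 at 21% O2 (26.36), and *Bhlhe41* at 44.51 in monomer mouse 9 at 11% O2 (41.15).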

How the results depend on the processing

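Of 373 counts of called members under an alternative, 338 stayed within 1.5 times the count reported and 35 did not. Of 3730 values of single members, 3641 kept their call without a reversal, 60 lost and 25 gained a call, and 4 reversed. The 3641 include 115 that changed sign with both values within 1 SE of 0, which was not counted as a reversal. Fitting all 48 mice with batch as a covariate gave 2 called members for PFF at 21% O2 and 0 for 11% O2 in PFF mice, with *Hlf* reversed at 0.17 in the latter, and leaving out the batch term gave 0 for 11% O2 in PFF mice. In PFF at 21% O2 of batch 1, DESeq2, its size factors in edgeR and no filter on low counts each gave 1 (*Per1*). For 11% O2 in monomer mice of batch 1, no filter and all 48 mice gave 1. All 48 mice gave 0 for 11% O2 in PFF mice of batch 3, 0 for batch 2 against batch 1 and a reversed *Hlf* at 0.39 for 11% O2 in PFF mice of batch 2. DESeq2 gave 3 for batch 2 against batch 1, and the adjusted p alone gave 6 for batch 3 against batch 1. Of these 6, *Bhlhe41* had rank 3764 by p among 15155 genes, so a large number of other genes passed there too. The shares of all genes called under these alternatives and when 1 mouse is left out are not given here. These counts of members therefore have no background beside them. Over the fits that leave out 1 mouse, *Ciart* ran from -0.16 (reversed, without PFF mouse 1) to 0.15 for PFF at 11% O2 in batch 1 and from -0.0086 (reversed, without monomer mouse 1 at 11% O2) to 0.24 for 11% O2 in monomer mice of batch 1. The cause of these changes was not tested.

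Leaving out 1 mouse at a time, the counts ran from 3 to 5 for PFF at 21% O2, 3 to 4 for it in batch 2, 1 to 4 for its difference between batches, 1 to 2 for 11% O2 in monomer mice of batch 1, 0 to 1 for 11% O2 in PFF mice of batch 3, 0 to 3 for batch 2 against batch 1 and 1 to 4 for batch 3 against batch 1. With the replicate number as a block, the 5 main counts were 3, 0, 2, 1 and 0, where *Per3* at 0.25 fell under the fold threshold for PFF at 21% O2, and no other call changed. Within a batch each arm held 3 to 7 mice, which limits what those comparisons can detect.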
